A study of Mus musculus with 18 samples.

Results

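The genes described here make cholesterol and fatty acids or store and export them. A list of 31 mouse genes was taken by name from both expression tables of the study. Of these, 30 were found among the 20310 genes of the table of differentiation stages, where *Fdft1* was not analysed under this name, and all 31 were found among the 20495 rows of the table of fibroblasts. By role the list holds 7 genes of the mevalonate steps, 8 of the squalene and sterol steps, 3 of sterol sensing, 8 of fatty acid synthesis and desaturation, and 5 of esterification, efflux and the liver X receptors (LXRs).

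RNA-seq had been carried out on 18 samples of mouse cells. Of these, 10 came from differentiation of an embryonic stem cell line of strain 129 with a GFP reporter for Brachyury, a mesoderm gene, with 2 replicates for each of 5 stages. They were undifferentiated cells grown on feeder fibroblasts (ESC), mesoderm sorted as Bry+/Flk1- (MES), hemangioblasts sorted as Bry+/Flk1+ (HB), hematopoietic progenitors positive for CD41 (HP) and macrophages positive for CD11b (MAC). The other 8 were single libraries of mouse embryonic fibroblasts (MEFs, strain 129, embryonic day 14.5), either untreated (uFIB) or given Scl, which is Tal1, and Lmo2 (SL), Scl, Fli1, Gata2 and Lmo2 (SFGL) or Fli1, Gata2 and Lmo2 (FGL), at day 12 and at day 21 of culture. According to the study's methods the MEFs were wild type or carried a doxycycline-inducible TAL1 transgene, were sorted negative for blood and endothelial surface markers and received the other factors by lentivirus. The labels do not say which MEFs went into which library. The sorted stages come from 1 reporter line, and hemogenic endothelium, which lies between HB and HP, was not analysed here.

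Cholesterol is built from acetyl-CoA through mevalonate and isoprenoid units to squalene, which is cyclised to lanosterol and then trimmed to cholesterol. The SREBP transcription factors are held in the endoplasmic reticulum by INSIG when sterols are plentiful, and when released they drive genes of sterol synthesis (SREBP2, from *Srebf2*) and of fatty acid synthesis (SREBP1, from *Srebf1*). LXRs sense oxidised sterols and drive *Abca1* and *Abcg1*, which export cholesterol, and macrophages are known for this export because they take up lipid from other cells.

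Promoter sequences are shown for a few members that the results below return to, so that the known motifs of this pathway can be seen beside the values. They are stretches directly upstream of the RefSeq transcription start on GRCm38.p6, written 5′ to 3′ on the gene's strand. Capitals mark CCAAT or its reverse complement ATTGG, the box bound by NF-Y. They also mark TCACNCCAC, a sterol regulatory element motif, in *Hmgcs1* and CACGTG, an E-box, in *Abca1*.
Hmgcs1, chr13:119690101-119690350, plus strand: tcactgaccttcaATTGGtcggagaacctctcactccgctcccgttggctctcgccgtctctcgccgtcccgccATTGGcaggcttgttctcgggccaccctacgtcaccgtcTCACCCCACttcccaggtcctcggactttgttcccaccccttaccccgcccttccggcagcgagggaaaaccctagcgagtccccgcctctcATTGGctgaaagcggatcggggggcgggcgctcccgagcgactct
Mvk, chr5:114444149-114444268, plus strand: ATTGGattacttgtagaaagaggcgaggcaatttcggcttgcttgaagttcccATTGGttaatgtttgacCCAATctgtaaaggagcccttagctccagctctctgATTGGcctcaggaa
Mvd, chr8:122443423-122443542, minus strand: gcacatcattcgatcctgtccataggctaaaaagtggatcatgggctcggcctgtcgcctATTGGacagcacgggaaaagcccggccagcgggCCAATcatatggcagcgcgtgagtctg
Idi1, chr13:8885486-8885605, plus strand: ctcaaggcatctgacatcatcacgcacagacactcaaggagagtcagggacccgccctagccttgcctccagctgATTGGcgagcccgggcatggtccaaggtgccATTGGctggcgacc
Lss, chr10:76531485-76531604, plus strand: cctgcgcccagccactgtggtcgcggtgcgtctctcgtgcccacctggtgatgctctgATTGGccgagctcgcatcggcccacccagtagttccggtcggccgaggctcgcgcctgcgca
Abca1, chr4:53159896-53160145, minus strand: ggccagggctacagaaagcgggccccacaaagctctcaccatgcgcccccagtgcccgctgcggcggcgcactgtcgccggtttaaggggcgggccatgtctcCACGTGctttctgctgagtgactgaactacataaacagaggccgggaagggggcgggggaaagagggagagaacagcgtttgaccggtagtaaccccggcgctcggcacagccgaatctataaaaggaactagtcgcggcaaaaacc

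Windows from 250 bases before to 50 bases after the start were given for 24 of the 31 members, in 30 windows. CCAAT or ATTGG lay in 18 of these 30 windows, against 37.4% of the 32851 windows of all genes. Among the 12 genes of the mevalonate and sterol steps with a window, 11 held it in at least 1 window, the exception being *Acat2*. A gene may have several windows, so this count per gene has no matching share over all genes. The motif TCACNCCAC, searched on both strands, was found only in *Hmgcs1*, with its first base 137 bases before the RefSeq start, and in 1.24% of all windows. That start is less certain. The bases just after it lay in 0 GENCODE transcripts of *Hmgcs1*, against 1 or 2 for the other genes shown. The authors' locus for *Hmgcs1* begins further on, at chr13:119690462. The E-box CACGTG, its own reverse complement, lay in 4 of the 30 windows, those of *Abca1*, *Dhcr7*, *Hsd17b7* and *Insig1*, and in 7.15% of all windows. None of the motifs contains another. A match describes letters in the window and says nothing of binding in these cells.

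Expression is given as FPKM, a fragment count divided by transcript length and by the depth of the library, which lets levels be set side by side within a table. Each stage has 1 value in which the authors had combined the replicates, and each MEF condition has 1 library, so that no value has a replicate error and no difference was tested. A gene is counted as higher or lower where log2(FPKM + 1) differed by at least 1, a 2-fold difference on that scale, and the share of all genes with at least 1 FPKM in either condition that met the same limit is given beside each count. The read number behind a value is unknown. All genes together summed to between 180554 and 201844 FPKM in ESC to HP and to 381686 FPKM in MAC. Calls of changes into MAC are therefore also given after all stages had been brought to a common upper quartile. The sorting labels matched most of their marker genes. *Pou5f1* was 383 FPKM in ESC, *T* (Brachyury) 142 in MES and *Kdr* (Flk1) 77.6 in HB. *Itga2b* (CD41) was 62.5 FPKM in HP, and 6 macrophage genes were between 92.8 and 543 in MAC. *Mixl1*, also listed as a marker of MES, stood higher in HB (80.4 FPKM) than in MES (46.9). In the MEFs, *Tal1* was 58.0 to 347 FPKM in the SL and SFGL libraries and 0.0414 and 0.415 in uFIB. *Fli1* and *Gata2*, which the SL label does not name, were also high in SL. At days 12 and 21 *Fli1* was 46.7 and 34.4 FPKM in SL, and 41.2 and 27.8 in SFGL. *Gata2* was 68.8 and 62.6 FPKM in SL, and 110 and 132 in SFGL. The FGL libraries matched their label only in part. *Lmo2* was 36.2 and 66.5 FPKM at days 12 and 21 against 0.499 and 2.28 in uFIB. *Gata2* was 21.9 and 35.1 against 1.80 and 2.13, and *Fli1* at day 12 was 8.29 against 3.43. Against the label, *Tal1* was 7.04 FPKM at day 12 and *Fli1* at day 21 was 3.35 FPKM against 3.02 in uFIB. They are therefore called the libraries labelled FGL.

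From ESC to HB, most genes of the mevalonate and sterol steps stood higher at each stage than at the one before. FPKM increased at both steps in 18 of the 30 members (60.0%) and in 10 of the 14 genes of the mevalonate and sterol steps (71.4%), against 35.1% of 10813 genes. After scaling to the same upper quartile these shares were 56.7%, 71.4% and 25.6%. From ESC to HB directly, log2(FPKM + 1) differed by a median of 1.15 over the genes of the mevalonate and sterol steps, of 0.79 over all members and of 0.11 over all genes. These are descriptions of 1 value per stage.

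From ESC to MES, 9 members were at least 2-fold higher, where 6.95% of all genes were, and 1 was lower, where 7.30% were. The higher ones were *Hmgcs1* and *Mvk* of the mevalonate steps, *Lss*, *Cyp51*, *Hsd17b7* and *Ebp* of the sterol steps, *Insig1*, the desaturase gene *Scd2* and *Soat1*, which encodes the enzyme that esterifies cholesterol for storage. *Mvk*, the kinase that phosphorylates mevalonate, went from 4.99 to 11.3 FPKM (log2 difference 1.03). *Lss*, which cyclises squalene epoxide to lanosterol, went from 6.41 to 17.0 FPKM (1.28). The lower one was *Abca1*, at 2.02 FPKM in ESC and 0.150 in MES, and its call did not hold where at least 5 FPKM was required. From MES to HB no member passed the limit in either direction, where 2.53% of all genes were higher and 3.30% lower, but 25 of 30 members had a positive difference, or 23 of 30 after scaling. The median was 0.41 for the members and 0.13 for all genes.

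**Figure D1:**
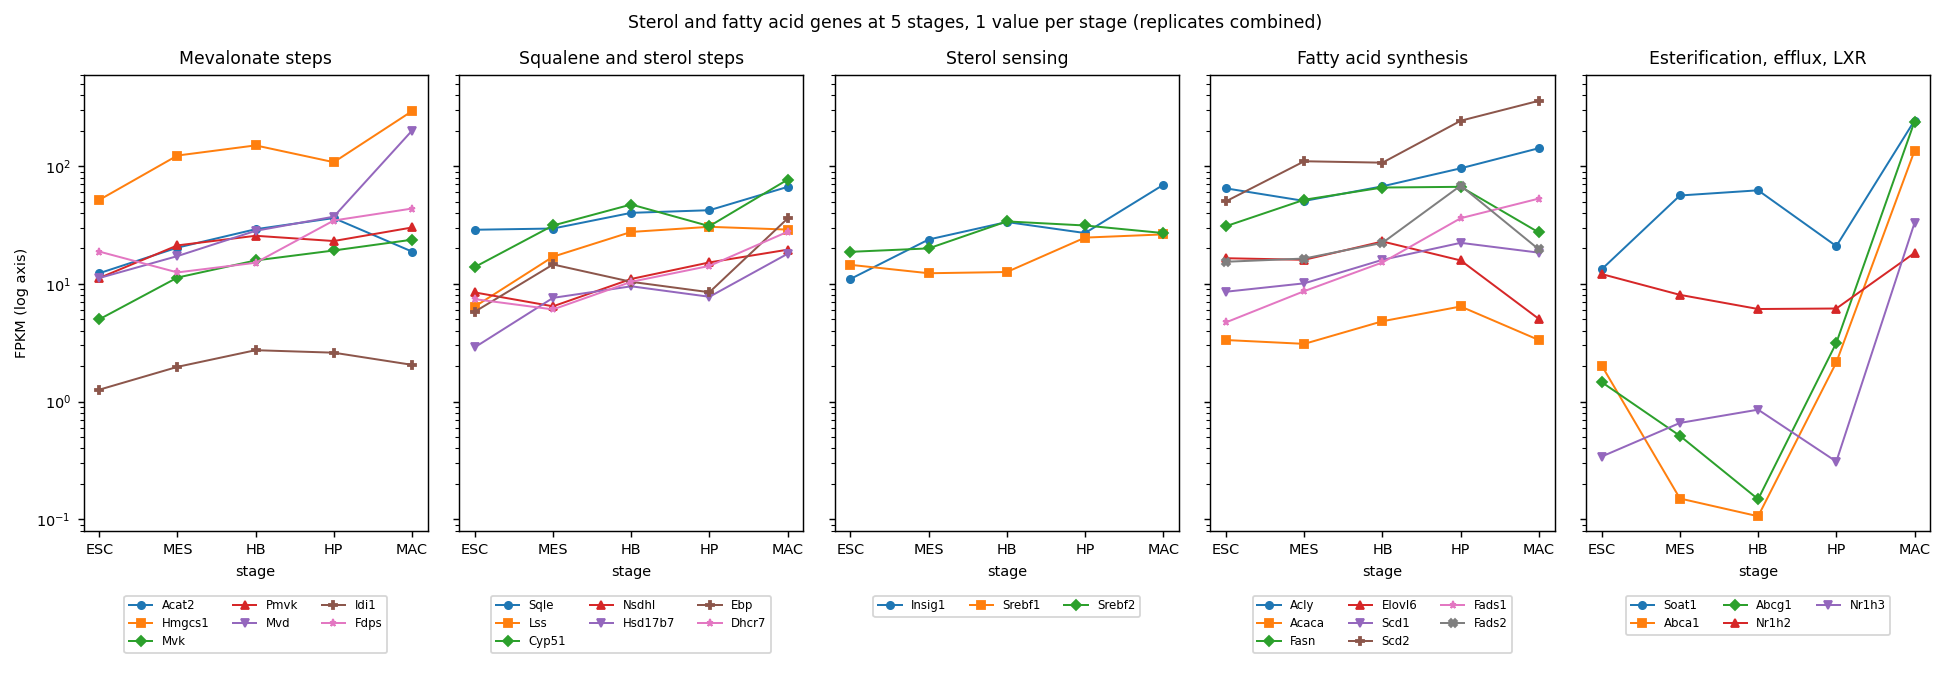
FPKM (log axis) of the 30 members of the table of stages at ESC, MES, HB, HP and MAC, 1 panel per role and 1 line per gene. Each point is the authors' single value for a stage and has no error bar. Most genes of the mevalonate and sterol panels lie lowest in ESC, and *Abca1*, *Abcg1* and *Nr1h3* climb from at most 3.15 FPKM in the first 4 stages to between 32.9 and 239 FPKM in MAC.

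From HB to HP, 6 members were at least 2-fold higher and 1 lower, where 8.88% and 8.79% of all genes were. No gene of the sterol steps was among them, and 3 of the 6 handle fatty acid unsaturation. *Fads2*, the first desaturase on the path to long polyunsaturated fatty acids, was at 15.4, 16.4, 22.3, 68.3 and 19.6 FPKM from ESC through MES, HB and HP to MAC. It thus stood highest in HP, with a log2 difference of 1.57 from HB. *Fads1*, which acts further along the same path and lies near *Fads2* on chromosome 19, was 4.71, 8.67, 15.2, 36.1 and 53.0 FPKM in the same order. Unlike *Fads2*, it was higher still in MAC as deposited, whereas after scaling its difference from HP to MAC was -0.18. *Scd2*, a stearoyl-CoA desaturase that makes monounsaturated fatty acids, was 50.3, 110, 107, 243 and 359 FPKM, which made it the highest of the fatty acid genes in MES, HB, HP and MAC.

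*Fdps*, the synthase of farnesyl diphosphate at the branch to sterols and to prenylated proteins, was at 18.8, 12.5, 15.1, 34.5 and 43.6 FPKM from ESC through MES, HB and HP to MAC (1.14 from HB to HP). It differed from the other mevalonate genes in that it dropped below its ESC level in MES and HB. *Abca1* went from 0.106 FPKM in HB to 2.15 in HP and *Abcg1* from 0.148 to 3.15, so that both calls rest on low levels and neither held where at least 5 FPKM was required. *Soat1* was the 1 member at least 2-fold lower, at 62.3 FPKM in HB and 20.9 in HP (-1.53).

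Markers of other cell types were also present in HP. The 6 fibroblast genes *Col1a1*, *Col1a2*, *Col3a1*, *Postn*, *Thy1* and *Dcn* summed to 60.4 FPKM in HP and to between 2.81 and 6.52 in the other 4 stages. *Dcn* was only 0.366 FPKM in HP, and *Thy1* went the other way, at 0.00523 FPKM in HP and 0.00741 to 2.89 elsewhere. The 4 embryonic red cell genes summed to 6818 FPKM in HP and to at most 52.7 elsewhere, while the 6 macrophage genes summed to 18.8 in HP, 1648 in MAC and at most 2.98 elsewhere. Of the macrophage genes, *Cd68* was 1.23 FPKM in HP, below ESC (2.21) and MES (1.70). The part of such cells in the HP values of the members was not tested. In bulk samples like these, fewer cells of a type and less RNA per cell cannot be told apart.

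Between HP and MAC the members parted by role. All 5 genes of esterification, efflux and the LXRs were at least 2-fold higher in MAC (4 after scaling), 3 fatty acid genes were at least 2-fold lower, and the genes of the mevalonate and sterol steps were mixed. In all, 11 members were higher, where 33.4% of all genes were, and 3 were lower, where 13.9% were. After scaling to the same upper quartile 6 members were higher, against 19.5% of all genes, and 5 lower, against 24.8%. The scaling moved the median of all genes from 0.45 to -0.21, and it moved the share of higher genes among all calls from 70.7% to 44.0%. For single members described below, the change is therefore given as deposited, then relative to the median of all genes. Ranges over several genes are as deposited unless scaling is named.

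The efflux genes stood furthest apart. In the authors' table on GRCm38, *Abca1* spans chr4:53030789-53159895 and *Abcg1* chr17:31057694-31117981. *Abca1*, which passes cholesterol to lipid-poor apolipoproteins, was at 2.02, 0.150, 0.106, 2.15 and 135 FPKM from ESC through MES, HB and HP to MAC. *Abcg1*, which passes cholesterol on to HDL particles, was 1.46, 0.511, 0.148, 3.15 and 239 FPKM in the same order. *Nr1h3*, the gene of LXRα, was 0.341, 0.658, 0.853, 0.309 and 32.9 FPKM. In all 3 the level in MAC lay far above the 4 other stages, which did not exceed 3.15 FPKM. The ratio of MAC to HP in FPKM was 62.6 for *Abca1*, 75.8 for *Abcg1* and 107 for *Nr1h3*, and the log2 differences were 5.43, 5.85 and 4.70, or 4.98, 5.40 and 4.25 relative to all genes. The value of *Nr1h3* rests on 0.309 FPKM in HP, and with pseudocounts of 0.1 and 0.001 its difference was 6.34 and 6.73.

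*Nr1h2*, the gene of the widely expressed LXRβ, was at 12.1, 8.06, 6.11, 6.17 and 18.3 FPKM from ESC through MES, HB and HP to MAC. It was the more highly expressed LXR gene in ESC to HP, by 35.3 times in ESC and 7.16 times in HB, whereas in MAC *Nr1h3* was 1.80 times *Nr1h2*. Its own difference from HP to MAC was 1.43, or 0.98 relative to all genes, and it did not pass the limit after scaling. *Soat1* was 13.3, 56.3, 62.3, 20.9 and 244 FPKM (3.48, or 3.03 relative to all genes) and thus had a peak in MES and HB and a higher level in MAC.

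In the mevalonate steps, *Mvd*, the decarboxylase that yields the first isoprenoid unit, had the largest difference from HP to MAC. It was at 11.2, 17.2, 28.2, 37.2 and 200 FPKM from ESC through MES, HB and HP to MAC (2.39, or 1.95 relative to all genes), and its call held after scaling. *Hmgcs1*, which makes HMG-CoA, was 51.6, 123, 150, 108 and 293 FPKM (1.44, or 0.99) and had the highest FPKM of the mevalonate genes at every stage. The other 5 mevalonate genes differed by -0.91 (*Acat2*) to 0.37 (*Pmvk*), below the median of all genes. *Pmvk* was the only member with more than 1 transcription start site in the table, and one of its 2 rows held most of the signal, at 10.6 to 27.6 FPKM against 0.557 to 2.49 for the other.

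The sterol steps had 3 genes at least 2-fold higher in MAC, *Ebp*, *Cyp51* and *Hsd17b7*. *Ebp*, which shifts a double bond in the sterol ring, was at 5.80, 14.6, 10.4, 8.48 and 35.9 FPKM from ESC through MES, HB and HP to MAC (1.96, or 1.51 relative to all genes). *Cyp51*, the lanosterol demethylase, was 13.9, 31.3, 47.2, 30.9 and 76.8 FPKM (1.29, or 0.84). *Hsd17b7*, a sterol ketoreductase, was 2.89, 7.60, 9.53, 7.76 and 18.0 FPKM (1.12, or 0.67). All 3 were lower in HP than in HB before they reached their highest level in MAC, as were *Hmgcs1* and *Insig1*. *Insig1*, the SREBP anchor and itself an SREBP target, was 11.0, 23.8, 33.5, 27.0 and 69.3 FPKM (1.32, or 0.88). Of these, *Ebp* alone kept its call after scaling. *Sqle*, *Lss*, *Nsdhl* and *Dhcr7* did not pass the limit, with differences from -0.07 to 0.91, or from -0.78 to 0.21 after scaling. The SREBP genes themselves did not pass the limit either, with *Srebf1* at 24.7 FPKM in HP and 26.3 in MAC (0.09, or -0.36) and *Srebf2* at 31.3 and 27.0 (-0.21, or -0.66).

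Of the 8 fatty acid genes, *Fasn*, *Elovl6* and *Fads2* were at least 2-fold lower in MAC than in HP. *Fasn*, the fatty acid synthase, was at 30.9, 51.8, 65.8, 66.7 and 27.3 FPKM from ESC through MES, HB and HP to MAC (-1.26, or -1.71 relative to all genes). *Elovl6*, which lengthens palmitate, was 16.5, 16.0, 22.9, 15.8 and 5.03 FPKM (-1.48, or -1.93). *Fads2* differed by -1.75, or -2.20, and all 3 calls held after scaling. *Acaca*, the first committed enzyme of fatty acid synthesis, was 6.42 FPKM in HP and 3.33 in MAC (-0.78, or -1.23) and passed the limit only after scaling, as did *Acat2* of the mevalonate steps. *Acly*, *Scd1*, *Scd2* and *Fads1* differed by -0.26 to 0.57 as deposited and by -0.96 to -0.16 after scaling.

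**Figure D2:**
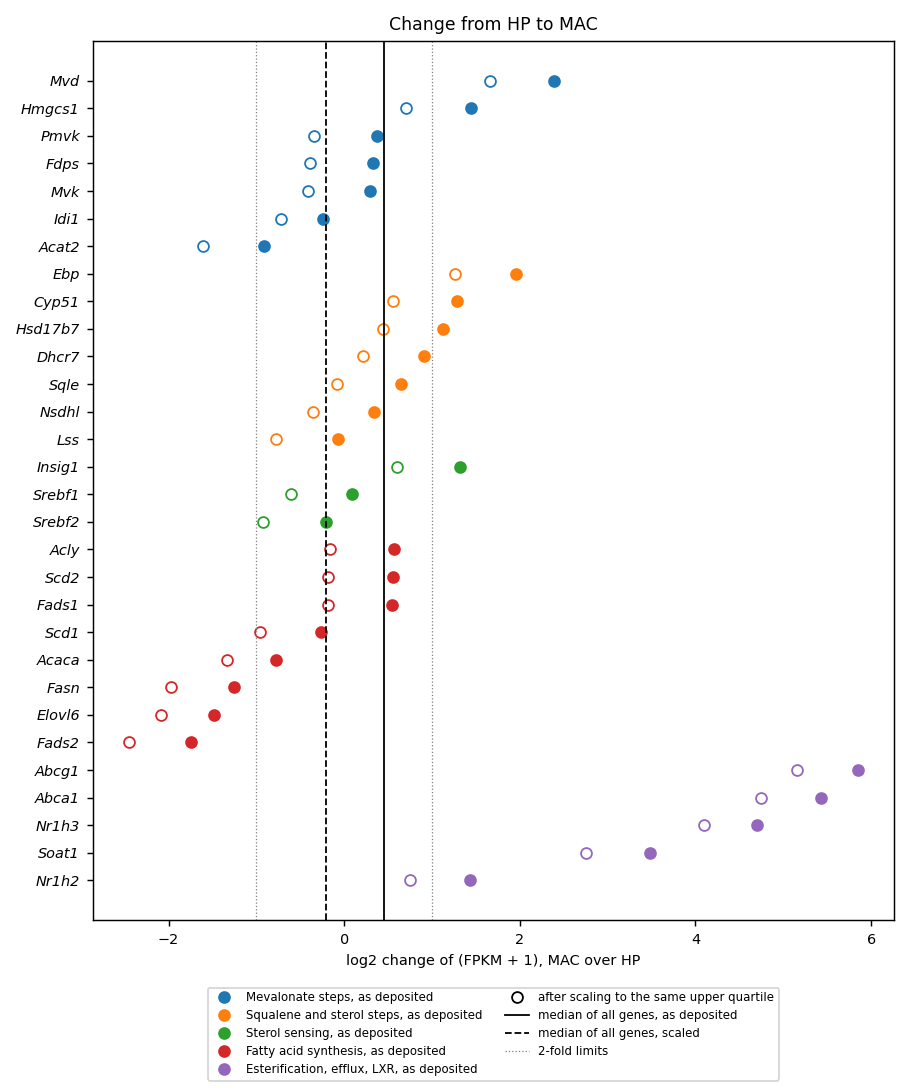
Difference in log2(FPKM + 1) between MAC and HP for the 30 members, grouped by role. Filled points are values as deposited and open points are values brought to a common upper quartile. The lines mark the medians of all genes, 0.45 and -0.21, and the 2-fold limits. The efflux genes *Abcg1*, *Abca1* and *Nr1h3* lie above 4 on both scales, and *Fasn*, *Elovl6* and *Fads2* lie below -1 on both.

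Counted over all stages, 21 of the 30 members had their highest FPKM in MAC and 18 their lowest in ESC. Both counts depended on the scale, since after scaling 11 members were highest in MAC and 15 in HP, while 14 were lowest in ESC and 7 in MAC. A further list of 25 genes of the same pathways was also counted. Of the 24 found in the table of stages, 11 were at least 2-fold higher and 1 lower in MAC than in HP as deposited, where 33.4% and 13.9% of all genes were. After scaling 4 were higher and 3 lower, where 19.5% and 24.8% of all genes were. The higher ones as deposited included the sterol transporters of the lysosome, *Npc1* (4.58 FPKM in HP and 63.9 in MAC) and *Npc2* (18.5 and 478), and *Rxra*, the partner of the LXRs (2.73 and 18.1), which kept their calls after scaling. They also included the sterol enzymes *Sc4mol*, *Tm7sf2* and *Sc5d*, the elongases *Elovl5* and *Elovl1*, *Insig2*, and the LXR targets *Mylip* and *Lpcat3*, with log2 differences from 1.11 (*Tm7sf2*) to 1.83 (*Elovl1*), and of these 8 genes *Elovl1* alone kept its call after scaling (1.12). The lower one was *Lbr*, a sterol reductase of the nuclear envelope, at 117 FPKM in HP and 11.2 in MAC, and it kept its call.

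In the MEFs, the libraries given SL or SFGL had higher levels of a run of mevalonate genes than uFIB of the same day and lower levels of *Abca1* and *Nr1h3*. In SL at day 12, 6 members were at least 2-fold higher, where 14.2% of all genes were, and 2 lower, where 13.5% were. At day 21, 4 were higher, where 11.9% were, and 6 lower, where 12.3% were. In SFGL at day 12, 6 members were higher and 3 lower, where 14.7% and 17.0% of all genes were. In SFGL at day 21, 5 were higher and 5 lower, where 14.0% and 15.9% were. SL and SFGL of a day are set against the same uFIB library, so their differences are not independent.

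*Pmvk*, *Mvd*, *Idi1* and *Fdps*, which act in succession from phosphomevalonate to farnesyl diphosphate, were at least 2-fold higher in SL and in SFGL on both days. *Fdps* stood at 54.1, 247, 266 and 59.7 FPKM (uFIB, SL, SFGL and the library labelled FGL) at day 12, and at 68.2, 201, 227 and 52.0 at day 21. *Mvd* was 11.5, 43.1, 43.6 and 12.6 FPKM at day 12 and 14.2, 34.5, 41.5 and 12.8 at day 21. For both genes the 4 SL and SFGL libraries lay above the 4 others without overlap. The same held for 29.1% of the 12807 genes with at least 1 FPKM in a library. *Idi1*, the isomerase of the isoprenoid units, was 21.9, 70.7, 60.2 and 22.7 FPKM at day 12 and 29.8, 74.9, 122 and 25.7 at day 21. *Pmvk*, the second kinase of the pathway, was 12.2, 45.0, 40.9 and 14.3 FPKM at day 12 and 22.9, 48.6, 79.0 and 26.6 at day 21. Neither gene overlapped between the 2 sets of libraries, and the log2 differences of the 4 genes ranged from 1.05 to 2.28. The 4 genes lie at chr3:89459118-89469009 (*Pmvk*), chr8:122433596-122443422 (*Mvd*), chr13:8885606-8892396 (*Idi1*) and chr3:89093588-89101967 (*Fdps*). Reads from overlapping genes may enter some values, since exons of *Fdps* share 1124 bases with Gm43738 on the same strand and exons of *Idi1* share 323 bases with Gm48574 on the opposite strand. Among the members described above, *Hmgcs1* shares 557 bases with Gm48342, *Lss* 381 with 4930483K19Rik, *Cyp51* 166 with *Akap9* and *Elovl6* 34 with Gm35986. These overlaps are on the opposite strand. On the same strand, *Srebf1* shares 66 bases with Mir6922, *Scd2* 61 with Mir5114 and *Nr1h3* 34 with Gm13783.

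The genes before them in the pathway did not pass the limit in SL or SFGL. *Acat2*, *Hmgcs1* and *Mvk* differed from uFIB by -0.93 to 0.52, with *Hmgcs1* at 62.6 to 81.0 FPKM in SL and SFGL against 63.3 and 93.3 in uFIB. Of the sterol steps, *Nsdhl* was at least 2-fold higher at day 12 in SL (1.23) and SFGL (1.01, or 0.99 after scaling) and *Lss* in SFGL at day 21 (1.13), while *Lss* in SL at day 12 fell just short of the limit (9.66 and 20.3 FPKM). *Nsdhl* was 16.6 FPKM in uFIB at day 12 but 31.0 at day 21, and against the mean of both uFIB libraries its differences at day 12 were 0.73 in SL and 0.52 in SFGL. The other 6 genes of the sterol steps, *Fdft1*, *Sqle*, *Cyp51*, *Hsd17b7*, *Ebp* and *Dhcr7*, differed by -0.37 to 0.88.

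*Abca1* stood at 25.7, 7.15, 5.28 and 29.7 FPKM (uFIB, SL, SFGL and the library labelled FGL) at day 12, and at 29.3, 12.2, 8.53 and 26.5 at day 21. *Nr1h3* was 6.60, 2.27, 1.11 and 4.48 FPKM at day 12 and 9.92, 2.20, 1.46 and 9.26 at day 21. Both genes were lower in all 4 SL and SFGL libraries than in any other, as were 31.0% of 12807 genes. Their log2 differences were -1.20 to -2.09 for *Abca1* and -1.21 to -2.15 for *Nr1h3*. *Abcg1* went the other way and was 11.2 and 10.8 FPKM in SL and SFGL at day 12 against 3.05 in uFIB, and 7.01 and 8.94 at day 21 against 4.18. It passed the limit at day 12 (1.59 and 1.54) and not at day 21 (0.63 and 0.94). *Nr1h2* and *Soat1* differed by 0.09 to 0.44 in SL and SFGL. The efflux genes that stood together in MAC thus had different signs in SL and SFGL.

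**Figure D3:**
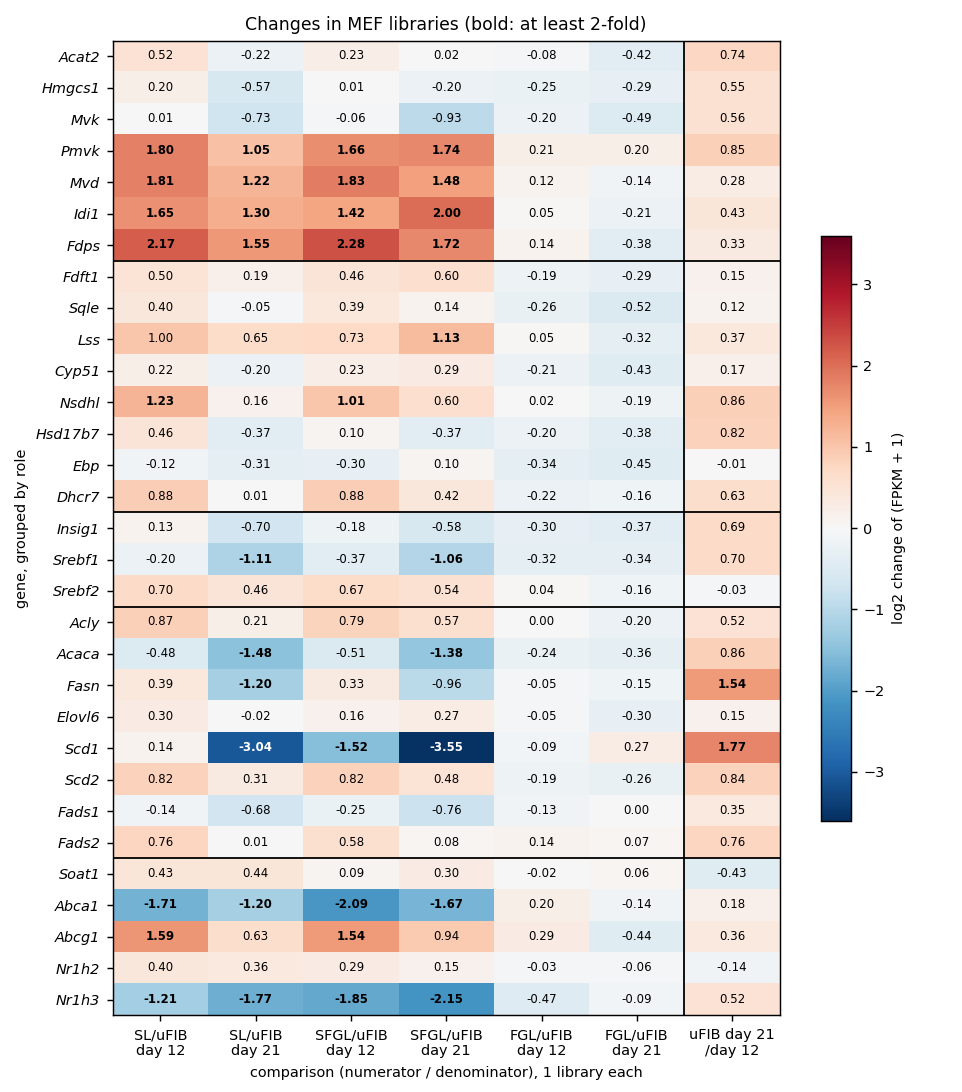
Difference in log2(FPKM + 1) for all 31 members in the MEF libraries, 1 library per condition. Columns give SL, SFGL and the libraries labelled FGL against uFIB of the same day, and uFIB at day 21 against day 12. Red is higher and blue lower, and bold marks at least 2-fold. *Pmvk*, *Mvd*, *Idi1* and *Fdps* are bold in all 4 columns of SL and SFGL, and the columns of the libraries labelled FGL hold no bold value.

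Among the fatty acid genes, *Scd1*, which encodes the stearoyl-CoA desaturase of fat and liver, had the widest range. It stood at 284, 312, 98.4 and 268 FPKM (uFIB, SL, SFGL and the library labelled FGL) at day 12, and at 972, 117, 81.8 and 1173 at day 21. SFGL was thus lower on both days (-1.52 and -3.55), and SL at day 21 (-3.04) but not at day 12 (0.14). Against the mean of both uFIB libraries *Scd1* in SL at day 12 differed by -1.01. Its close paralog *Scd2*, also on chromosome 19, was 163, 289, 288 and 142 FPKM at day 12 and 292, 364, 407 and 245 at day 21. *Scd1* was 3.32 times *Scd2* in uFIB at day 21, and *Scd2* was 4.98 times *Scd1* in SFGL. Reads shared by these paralogs could not be told apart from the tables.

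At day 21, SL was also lower than uFIB in *Srebf1* (-1.11), *Acaca* (-1.48) and *Fasn* (-1.20), and SFGL in *Srebf1* (-1.06) and *Acaca* (-1.38). For *Fasn* the uFIB libraries themselves lay far apart, at 30.5 FPKM at day 12 and 90.3 at day 21, whereas SL was at 40.1 and 38.7. Against the mean of both uFIB libraries *Fasn* differed by -0.63 and *Srebf1* by -0.81 in SL, and *Srebf1* by -0.75 in SFGL, none of them at least 2-fold. *Srebf1* shares 109 bases of exon with *Rai1* on the opposite strand, and use of strand in counting is not given in the sources used here. *Acly*, *Elovl6*, *Fads1* and *Fads2* did not pass the limit in SL or SFGL.

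Levels of adipocyte genes also differed between these libraries. A list of 8 such genes, *Adipoq*, *Fabp4*, *Plin1*, *Pparg*, *Cidec*, *Cebpa*, *Lpl* and *Retn*, was set up after values of the MEFs had been seen. Not all of them mark adipocytes alone. Among the stages, *Lpl* was 1548, *Fabp4* 80.8, *Pparg* 60.9 and *Cebpa* 59.2 FPKM in MAC, whereas *Adipoq*, *Plin1*, *Cidec* and *Retn* were at most 0.166 there. All 8 were lower in each SL and SFGL library than in any uFIB library or library labelled FGL, where 31.0% of 12807 genes were. Their sum stood at 3788, 1119, 525 and 3220 FPKM (uFIB, SL, SFGL and the library labelled FGL) at day 12, and at 4815, 379, 277 and 4211 at day 21. In SL at day 12, this sum was below that of uFIB. In that library *Abca1* (-1.71) and *Nr1h3* (-1.21) were at least 2-fold lower, while *Scd1* (0.14), *Fasn* (0.39) and *Srebf1* (-0.20) did not pass the limit. Against the mean of both uFIB libraries *Scd1* did pass there (-1.01). *Adipoq*, the gene of a hormone made by fat cells, was 241 and 348 FPKM in uFIB and 10.6 to 45.4 in SL and SFGL. The 6 fibroblast genes were likewise lower in all 4 SL and SFGL libraries, where they summed to 1235 to 2571 FPKM against 5845 to 7697 in the others. The 3 progenitor genes, 5 of 6 macrophage genes and 3 of 4 red cell genes were higher in all 4, where 29.1% of 12807 genes were. Macrophage sums were 45.2 to 103 FPKM against 8.44 to 18.0. The part of adipocyte, fibroblast and blood cells in the differences of the members was not tested.

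**Figure D4:**
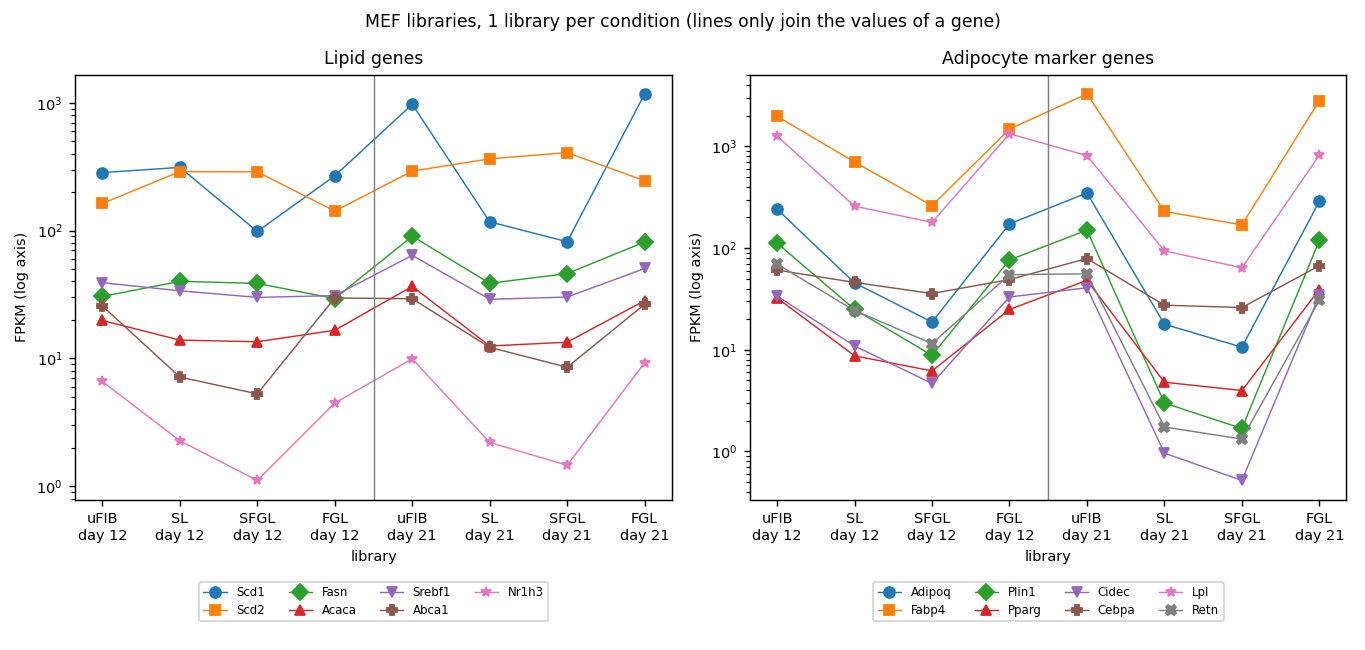
FPKM (log axis) of 7 members (left) and of 8 adipocyte genes (right) in the 8 MEF libraries, day 12 left and day 21 right of the grey line. Points are single libraries and lines only join the points of a gene. *Scd1*, *Abca1* and *Nr1h3* at day 21 are high in uFIB and in the library labelled FGL and low in SL and SFGL, as are all the adipocyte genes.

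Over the 8 MEF libraries, 12 of the 31 members lay higher in all 4 SL and SFGL libraries than in the other 4 (38.7%, against 29.1% of 12807 genes), and 4 lay lower (12.9%, against 31.0%). The 12 were *Pmvk*, *Mvd*, *Idi1*, *Fdps*, *Fdft1*, *Lss*, *Nsdhl*, *Dhcr7*, *Srebf2*, *Acly*, *Abcg1* and *Nr1h2*, of which *Dhcr7* was lost after scaling. The 4 were *Acaca*, *Fads1*, *Abca1* and *Nr1h3*. *Srebf2*, the SREBP gene tied to sterol synthesis, was 59.0 to 71.5 FPKM in SL and SFGL and 38.1 to 45.0 elsewhere, and *Srebf1* was 29.0 to 33.8 in SL and SFGL and 31.0 to 64.0 elsewhere.

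In the libraries labelled FGL no member passed the limit in either direction on either day. Of all genes 2.96% were higher and 0.302% lower at day 12, and 0.479% and 0.376% at day 21. At day 21, 26 of 31 members had a negative difference from uFIB, with a median of -0.26 against 0.01 for all genes, and this included all 8 genes of the sterol steps. After scaling 29 of 31 were negative, and the share of higher genes among all calls went from 56.0% to 44.1%. At day 12 the members were split, with 11 positive and 20 negative as deposited and 15 and 16 after scaling.

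Untreated MEFs differed between the days. At day 21, *Fasn* (1.54) and *Scd1* (1.77) were at least 2-fold higher than at day 12 and no member was lower, where 1.87% of all genes were higher and 1.27% lower. A positive difference was seen in 27 of the 31 members, with a median of 0.52 against -0.05 for all genes, and in 29 after scaling. Of the 8 adipocyte genes 6 were also higher at day 21, with *Fabp4* at 3283 FPKM against 1976, while *Lpl* (811 against 1263) and *Retn* were lower. Their part in these differences was not tested.

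Of the further list, 23 genes were found in the table of MEFs. In SL, 7 were at least 2-fold higher and 1 lower at day 12, where 14.2% and 13.5% of all genes were, and 3 higher and 3 lower at day 21, where 11.9% and 12.3% were. Those that passed in SL on both days were *Lbr* (7.86 FPKM in uFIB and 83.1 in SL at day 12, 7.12 and 43.2 at day 21), the sterol carrier *Stard4* (6.40 and 25.9, 7.58 and 23.1), *Soat2* (0.256 and 2.82, 0.298 and 1.69) and, in the lower direction, the acetyl-CoA carboxylase *Acacb* (3.87 and 0.969, 3.92 and 1.14). In SFGL, 7 were higher and 4 lower at day 12, where 14.7% and 17.0% of all genes were. At day 21, 3 were higher and 4 lower, where 14.0% and 15.9% were. The same 4 genes passed in SFGL on both days in the same directions. *Me1* (-1.05 and -1.33) and *Rxra* (-1.12 and -1.53) were also lower there on both days. None of the 23 passed in the libraries labelled FGL.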

How the data were processed

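Samples were grouped by their labels. The authors deposited FPKM values calculated with Cufflinks on mm10 (GRCm38). For the stages, the methods state alignment with SHRiMP, unique reads and removal of duplicates, which limits high values, and the table gives 1 FPKM value per transcription start site and stage with replicates combined. The labels of the MEFs name TopHat and those of ESC, unlike the other stages, Bowtie and HOMER, so that the aligner behind the ESC values, and behind differences from ESC, is not certain. Versions are not given in the sources used here.

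Start sites were summed per gene. The tables had been normalized separately and were compared only internally. Differences were taken on log2(FPKM + 1), which understates changes of low genes, with at least 2-fold as the limit and no p-value. Most low MEF values did not show whole reads (15.1% to 19.2% shared the commonest step under 0.3 FPKM), so no count test was run. By those steps the libraries had 0.587 to 1.56 times the depth of uFIB at day 12. In the table of stages, 1 further value column (HE), to which no sample here maps, was not used, and HB was set directly against HP.

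The members and lists were chosen with earlier results of these data known. Values in every condition were given for members called from HB to HP, from HP to MAC or in SL on both days, and the rest by ranges. Alternatives were pseudocounts of 0.1 and 0.001, scaling to the same upper quartile, a minimum of 5 FPKM or none, the highest start site alone, and, as reference, the 2 uFIB libraries averaged. Positions are 1-based on GRCm38. Promoters are from RefSeq, and exon overlaps and the check of the starts from GENCODE. The scripts, tested on simulated data, ran in Python 3.11.15 with matplotlib 3.10.9, pandas 2.3.3 and NumPy 2.4.6.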

Additional observations from a re-analysis of the deposited data

How the results depend on the processing

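The 22 counts of members at least 2-fold higher or lower were repeated under the alternatives, the other counts after scaling alone, and the cause of a change was not tested unless the alternative's construction shows it. With pseudocounts of 0.1 and of 0.001, 21 of 22 counts stayed within 1.5 times the reported one in each case, and the exception in both was the number of members lower from ESC to MES, which was 2 instead of 1 because *Abcg1* passed the limit. With at least 5 FPKM required, that number was 0, since *Abca1* stayed below the minimum. Scaling to the same upper quartile moved 2 of 22 counts by over 1.5 times, both from HP to MAC, where 6 members were higher and 5 lower, and 5 instead of 6 were higher in SFGL at day 12 (*Nsdhl*, 0.99). With the mean of both uFIB libraries as reference, 11 of 12 counts stayed within 1.5 times, although single calls were lost (*Nsdhl*, *Srebf1*, *Fasn*) or gained (*Scd1*, *Acaca*, *Abcg1*) in SL or SFGL, and 2 members, *Fasn* (-1.01) and *Scd1* (-1.23), became lower in the library labelled FGL at day 12. Omitting the minimum changed 0 of 22 counts and using the highest start site alone 0 of 8. No member changed sign while called. No paired analysis was possible because the table of stages, whose labels carry replicate numbers, gives no value per replicate, and no replicate could be left out there. For the MEFs, with 1 library per condition, a fit of treatment with day as a block was not run. The unit hides the read number, so counting error is unknown, and levels under 1 FPKM, those of *Abca1* and *Abcg1* in MES and HB and of *Nr1h3* in ESC to HP, are among the least certain.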

Other observations

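*Idi1* had the lowest FPKM of the 7 mevalonate genes at all 5 stages, at 1.26 to 2.73 FPKM, while *Hmgcs1* had the highest. Within the MEF table *Idi1* ranked between 2 and 4 of the 7, at 21.9 to 122 FPKM. The tables were made with different alignment steps and were normalized separately, so the levels themselves cannot be set against each other. Of the 31 members, 10 share exon bases with another gene in GENCODE, among them *Fdft1* with *Ctsb* on the opposite strand (774 bases).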
